A study of Rattus norvegicus with 3 samples.

Results

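The genes described here are the rat cell cycle regulators and replication genes: cyclins, cyclin-dependent kinases (CDKs) and their inhibitors, the MCM helicase, CDC proteins, E2F factors, Aurora and Polo-like kinases, and the Gadd45 and Btg stress genes. They were chosen by the start of their symbol in the array's annotation. This gave 103 of 14218 genes and 156 of 20832 probe sets with a single symbol. The rule itself uses no measured value, but it was set with earlier results of these data known. All 103 gene IDs were found in RefSeq's rat gene table under the same symbol. The name rule also brings in Cdc42, a regulator of the actin cytoskeleton, with its partners (9 genes) and 18 other genes. Some of these 18 share only a name, such as Cdc40 and Cdc5l of the splicing machinery.

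The kidneys came from male Wistar rats of 370 to 508 g, used as donors after cardiac death. All groups shared 20 min of warm ischaemia, 17 ± 0.7 h of cold storage in University of Wisconsin solution and 5 h 43 min ± 21 min of perfusion with blood from the femoral artery of a living rat (the labels do not say what kind of error these are). Recipients had heparin at 100 U per ml and hour, peptide 2, a peptide modelled on the part of the chemokine CCL5 that binds heparin, at 0.5 mg per ml, or normal saline at 1 ml per hour as control, with 7 animals in each group. Delivery is called an infusion in one text of the submitters and a bolus in another. RNA from 3 kidneys of each group, picked for RNA quality, was pooled in equal molar amounts and read on 1 array per group. There is therefore no replicate check of any difference, no test was made, and no SD, standard error or p-value can be given.

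Values are GCRMA log2 expression values per probe set, so a difference of 1 is 2-fold. All 3 arrays shared a lowest value of 2.18, which 29.5% of probe sets on the heparin array, 30.9% on the peptide array and 30.9% on the control array lay within 0.01 of. A gene was represented by its probe set with the highest mean and counted as measured when it lay at or above the median of its arrays (4.16 on the heparin array, 4.14 on the peptide array and 4.14 on the control array). For beta-actin, whose 3′ probe set reads higher than its 5′ one where RNA or its copy is short, that excess was 2.95 on the heparin array, 2.34 on the peptide array and 2.33 on the control array. For Gapdh the same excess was 0.32 on the heparin array, 0.37 on the peptide array and 0.36 on the control array, so the heparin array was not the highest there. The 5S ribosomal RNA probe set read 9.0 on the heparin array, 6.63 on the peptide array and 6.98 on the control array. The 14 probe sets of bacterial hybridisation controls had a median of 10.51 on the heparin array, 9.48 on the peptide array and 9.94 on the control array. The part of these array differences in the results below was not tested. Kidney identity was checked on 7 of 8 marker genes found on the array. All 7, among them Umod of the thick ascending limb and Slc34a1 of the proximal tubule, were above the median on all arrays.

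Progress through the cell cycle is driven by CDKs, each switched on by a cyclin partner and held back by inhibitors such as p21 (Cdkn1a) and p27 (Cdkn1b). D-type cyclins respond to growth signals in G1, E2F factors then switch on the replication genes, the MCM helicase opens DNA in S phase, and Cdk1 with cyclin B, the Aurora kinases and Polo-like kinase 1 run mitosis. Most cells of the adult kidney rest outside the cycle. Surviving tubule cells are known to re-enter it in the days after ischaemia, and p21, Gadd45 and Btg genes belong to the early response to damage.

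Of the 103 genes, 69 were measured on all 3 arrays and 34 lay below the median on all 3. This is 67% above the median on all arrays, against 64.9% of all genes. Of the 34, 17 sat within 0.01 of the lowest value on all arrays. No gene crossed the median between arrays, so none had only a bound. The split differed by role. Of 8 Aurora and Polo-like kinase genes, 2 were measured, Plk2 and Plk3, and Aurkb, Plk1, Plk4 and Plk5 were at the lowest value on all arrays. Of 11 cyclin genes, 5 were measured, which were Ccnd1, Ccnd2, Ccnd3, Ccng1 and Ccng2. The S phase and mitotic cyclins Ccna1, Ccna2, Ccnb1, Ccnb2, Ccne1 and Ccne2 all lay below the median. All 4 genes of the Gadd45 and Btg group and 15 of 18 CDK genes were measured, and the 3 CDK genes that were not are Cdk1, Cdk2 and Cdk6. A value below the median shows that the probe set gave little signal over the array's background, and it does not show that the transcript was absent. In pooled tissue RNA, fewer cells with a transcript and less of it per cell cannot be told apart.

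**Figure D1:**
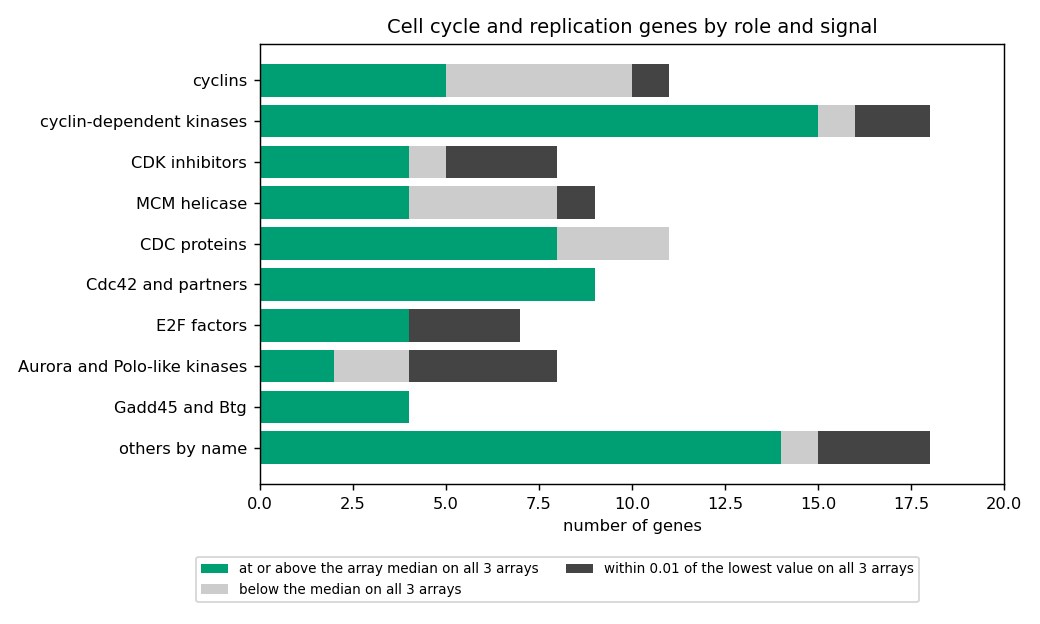
Number of cell cycle and replication genes (x axis) in each role group (y axis), split into those at or above the array median on all 3 arrays, those below it, and those within 0.01 of the lowest value on all 3 arrays. Cdc42 with its partners (9 genes) and the Gadd45 and Btg group (4 genes) are wholly above the median, and 6 of 8 Aurora and Polo-like kinase genes are below it.

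Marker genes of dividing cells that the name rule does not take in were read as well. Of Mki67, Top2a, Birc5, Foxm1 and Pcna, Pcna was measured, Top2a and Birc5 were at the lowest value on all arrays, and Mki67 read 2.74 on the heparin array, 2.26 on the peptide array and 2.26 on the control array. Pcna, the sliding clamp of DNA polymerases that also serves in DNA repair, read 10.37 with heparin, 10.80 with peptide and 10.64 in control. Its differences were -0.27 for heparin and 0.16 for peptide against control.

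E2F and CHR elements are known to bind complexes that keep cell cycle genes silent in resting cells. The promoters of Cdk1 and Plk1, both at the lowest value on all arrays, are shown. They run from 250 bases before to 50 bases after the gene's start in RefSeq's GRCr8 assembly, together with those of Cdc25b, Plk2 and Cdkn1a, on which the differences below turn. Capitals mark matches on either strand to an E2F motif, which is TTTGGCG or else TTTCCCG or else TTTGCCG or else TTTCGCG, to a CHR motif, which is TTTGAA or else TTTAAA, to the letters of a CCAAT box or to the consensus half-site of p53. The half-site was added after the data were seen. The letters TTTAAA also occur in TATA-like elements.
Cdk1, chr20:19265043-19265342, plus strand: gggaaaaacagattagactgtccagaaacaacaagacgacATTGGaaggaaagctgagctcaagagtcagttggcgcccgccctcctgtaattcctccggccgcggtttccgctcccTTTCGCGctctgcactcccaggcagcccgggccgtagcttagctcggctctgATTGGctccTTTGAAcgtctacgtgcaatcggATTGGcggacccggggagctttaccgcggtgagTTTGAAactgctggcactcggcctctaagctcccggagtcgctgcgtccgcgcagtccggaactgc
Plk1, chr1:186147408-186147707, plus strand: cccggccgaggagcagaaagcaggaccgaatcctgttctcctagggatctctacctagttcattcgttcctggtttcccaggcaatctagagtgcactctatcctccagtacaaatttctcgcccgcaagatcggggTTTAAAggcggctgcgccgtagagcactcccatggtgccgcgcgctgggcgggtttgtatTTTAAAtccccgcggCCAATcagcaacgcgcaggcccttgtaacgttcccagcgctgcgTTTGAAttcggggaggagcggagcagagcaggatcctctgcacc
Cdc25b, chr3:138859923-138860222, plus strand: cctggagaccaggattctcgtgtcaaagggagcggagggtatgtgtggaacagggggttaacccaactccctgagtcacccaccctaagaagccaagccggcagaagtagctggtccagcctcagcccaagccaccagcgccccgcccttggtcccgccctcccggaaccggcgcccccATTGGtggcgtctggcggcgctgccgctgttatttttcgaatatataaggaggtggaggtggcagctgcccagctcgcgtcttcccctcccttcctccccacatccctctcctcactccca
Plk2, chr2:43702286-43702585, plus strand: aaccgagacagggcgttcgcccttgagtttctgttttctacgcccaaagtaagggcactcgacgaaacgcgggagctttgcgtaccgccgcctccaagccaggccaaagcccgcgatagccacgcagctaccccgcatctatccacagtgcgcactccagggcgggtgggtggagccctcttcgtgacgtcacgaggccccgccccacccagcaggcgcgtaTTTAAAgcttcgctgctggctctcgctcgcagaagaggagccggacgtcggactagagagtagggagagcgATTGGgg
Cdkn1a, chr20:7150682-7150981, plus strand: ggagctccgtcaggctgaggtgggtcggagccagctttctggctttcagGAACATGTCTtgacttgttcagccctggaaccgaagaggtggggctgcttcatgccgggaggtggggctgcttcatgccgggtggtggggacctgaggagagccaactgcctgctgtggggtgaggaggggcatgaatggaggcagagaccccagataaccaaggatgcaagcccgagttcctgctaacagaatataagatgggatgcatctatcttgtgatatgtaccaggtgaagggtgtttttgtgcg

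The Cdk1 window held 1 E2F match, 2 CHR matches and 3 CCAAT boxes, and the Plk1 window held 3 CHR matches and 1 CCAAT box. The Cdc25b window held 1 CCAAT box, the Plk2 window 1 CHR match and 1 CCAAT box, and the Cdkn1a window 1 p53 half-site and none of the other motifs. Promoters were found for 81 of the 103 genes. An E2F match stood in 8 of 27 promoters of genes below the median on all arrays (29.6%), in 7 of 54 of measured genes (13%) and in 7.08% of all 27457 rat promoters searched. A CHR match stood in 12 of those 27 (44.4%), in 11 of those 54 (20.4%) and in 27.9% of all promoters. CCAAT boxes were present in 59.3% of the first, 46.3% of the second and 37.7% of all promoters, and p53 half-sites in 7.41%, 7.41% and 7.89% in the same order. Among the measured genes, Mcm2, Mcm5 and Mcm7 held 2, 4 and 2 E2F matches, while the Plk1 window held none. A match describes letters and is not a site of binding. The part of these motifs in the array values was not tested.

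The first comparison asked how the heparin kidneys differed from saline controls. Among the 69 measured cell cycle genes 1 was at least 2-fold lower in heparin, where 0.747% of all 9236 measured genes were. None (0) was at least 2-fold higher, where 1.06% of all genes were. At 1.5-fold, 2 were lower and 0 higher (3.37% and 3.04% of all genes). The median difference was 0.00, as over all genes. Of the 69, 16 were higher in heparin, 32 lower and 21 identical. The 32 lower genes are 46.4% of those measured, near the background of 44.2%, and over all genes 25.8% were higher and 30.1% identical.

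The gene past 2-fold was Cdc25b, which encodes the phosphatase that starts the activation of CDK1 at the entry into mitosis. It read 5.45 with heparin, 6.52 with peptide and 6.60 in control. The heparin array stood apart below the other 2, by 2.22-fold against control and 2.10-fold against peptide. Cdc25b has 1 probe set, and its heparin value is below the 60th percentile of that array, 5.86. Its relative Cdc25a, which acts at the start of S phase, read 5.21 on all 3 arrays.

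Cdk20, the cell cycle-related kinase, which is also known from work on cilia, read 7.70 with heparin, 8.62 with peptide and 8.62 in control. It was 1.89-fold lower with heparin than on either other array. It too has a single probe set. Next in size was a partner of Cdc42, the effector Cdc42ep1, at 8.09 with heparin, 8.45 with peptide and 8.67 in control, a difference of -0.58 between heparin and control. Cdkn1c, which encodes the inhibitor p57 and is known in the kidney from mature podocytes, went the other way. It read 9.30 with heparin, 8.62 with peptide and 8.73 in control, 0.57 higher with heparin than in control.

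Podocyte genes were read beside Cdkn1c. Of 9 podocyte genes listed after the Cdkn1c values were known, 7 were on the array and 6 were measured. All 6 were higher on the heparin array than on the control array, with a median difference of 0.52, and 5 were lower on the peptide array than on the control array, with a median of -0.14. Over all measured genes 25.8% were higher with heparin than in control and 28.5% were lower with peptide than in control. Podxl was 0.74 higher with heparin and Nphs1 0.04 higher. The log2 of their summed level was 11.54 with heparin, 10.83 with peptide and 11.00 in control. Their part in the Cdkn1c values was not tested.

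Peptide kidneys were then set against the saline controls. Past 2-fold, 0 of the 69 measured cell cycle genes were higher in peptide (0.723% of all 9268 measured genes) and 0 were lower (0.119%). At 1.5-fold, 1 was higher and 1 lower (2.11% and 0.917%). Of the 69, 14 were higher in peptide, 20 lower and 35 identical, and the median was 0.00, as over all genes. Over all genes 32% were higher, 28.5% lower and 39.5% identical. Differences under 0.25 in size made up 92.8% of the cell cycle genes and 85.9% of all genes.

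The higher gene was Plk2, a Polo-like kinase that is induced by serum and by p53 and takes part in centriole duplication. It read 9.37 with heparin, 9.99 with peptide and 9.09 in control, so the peptide array was the highest, by 1.87-fold against control and with heparin 1.54-fold below it. Plk3, a relative that also responds to stress, read 5.30 on all 3 arrays. The lower gene was Ccnd2, which encodes cyclin D2. It read 7.85 with heparin, 7.06 with peptide and 7.85 in control, 1.73-fold lower with peptide than in control.

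**Figure D2:**
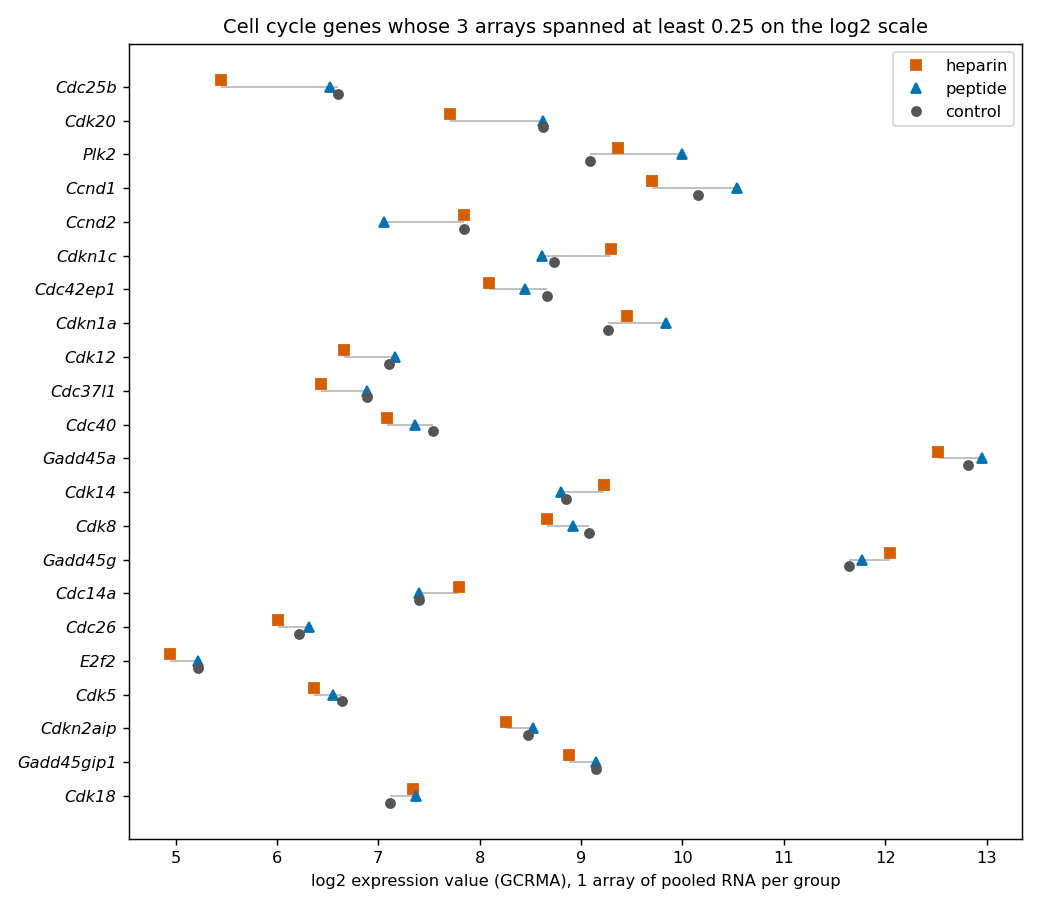
log2 expression values (x axis) of the 22 cell cycle genes (y axis, ordered by span) whose 3 arrays spanned at least 0.25, with a square for heparin, a triangle for peptide and a circle for control, 1 array each. Cdc25b and Cdk20 have the heparin square far to the left of the other symbols, and Plk2 and Ccnd2 have the peptide triangle at opposite ends.

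Cyclin D1, the partner of CDK4 and CDK6 in early G1, differed between peptide and control in the opposite direction to cyclin D2. Ccnd1 read 9.70 with heparin, 10.54 with peptide and 10.15 in control, so it was 0.45 lower with heparin and 0.38 higher with peptide than in control. Its other 2 probe sets, at 9.83 and 8.12 with heparin, 10.42 and 8.88 with peptide and 10.12 and 8.70 in control, gave the same order of the 3 arrays. Ccnd3 read 8.23 on all 3 arrays. Cdk4, the kinase that D cyclins bind, read 9.21 with heparin, 9.04 with peptide and 9.14 in control.

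Cdkn1a, the gene of p21 and a target of p53, read 9.45 with heparin, 9.84 with peptide and 9.27 in control. It was 0.19 higher with heparin and 0.57 higher with peptide than in control. A second probe set was below the median with heparin (3.30) and in control (3.30) and at 4.91 with peptide. When both probe sets were averaged the peptide difference was 1.09 and past 2-fold. Cdkn1b, the gene of p27, read 10.27 on all arrays, and the INK4 inhibitor Cdkn2d read 6.66 with heparin, 6.66 with peptide and 6.68 in control. The INK4 genes Cdkn2a and Cdkn2c and the CDK2 phosphatase gene Cdkn3 were at the lowest value on all arrays, and Cdkn2b was at it on the heparin and control arrays.

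**Figure D3:**
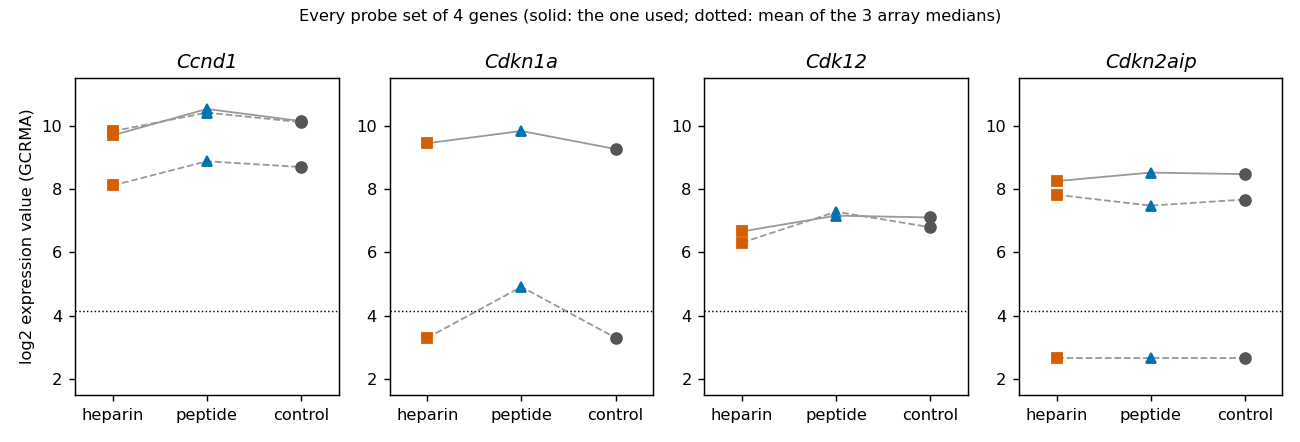
log2 expression values (y axis) of every probe set of Ccnd1, Cdkn1a, Cdk12 and Cdkn2aip on the heparin, peptide and control arrays (x axis), with solid lines for the probe set used. The 3 Ccnd1 probe sets keep the same order of arrays, the second Cdkn1a probe set is above the dotted median with peptide (4.91) and below it otherwise, and the 2 measured Cdkn2aip probe sets run in opposite directions.

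The stress genes Gadd45a, Gadd45b and Gadd45g encode small proteins that bind p21, PCNA and stress kinases. Gadd45a read 12.52 with heparin, 12.95 with peptide and 12.82 in control. Gadd45b read 10.70 with heparin, 10.93 with peptide and 10.71 in control. Gadd45g had another order, at 12.04 with heparin, 11.78 with peptide and 11.64 in control, so that it was 0.40 higher with heparin than in control while Gadd45a was 0.29 lower. Btg1, which holds back proliferation, read 13.38 on all arrays. Ccng1, cyclin G1, another p53 target, read 11.14 with heparin, 11.06 with peptide and 11.13 in control. None of these 5 genes reached 1.5-fold in any comparison.

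In the MCM group, 6 genes, Mcm2 to Mcm7, form the ring of the replicative helicase, and 4 of them were measured. Mcm2 read 6.25 with heparin, 6.22 with peptide and 6.22 in control. Mcm4 read 5.65, Mcm5 4.89 and Mcm7 8.32 on each array, and the largest difference in the group was 0.03. Mcm3 (2.52 on each array) and Mcm6 (3.28 on each array) were below the median, as were Mcm8, Mcm9, Mcm10 and Cdc45, the partner of the ring in the moving fork. Among the E2F factors, E2f1, E2f7 and E2f8 were at the lowest value on all arrays. E2f4 (6.71) and E2f6 (7.38), which act mainly as repressors, were identical on all arrays. E2f5, another repressor, read 9.38 with heparin, 9.38 with peptide and 9.55 in control. E2f2, an activator, read 4.94 with heparin, 5.22 with peptide and 5.22 in control.

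Other CDKs act on transcription or outside the cycle, and these were measured. Cdk12, a kinase of RNA polymerase II elongation, read 6.67 with heparin, 7.17 with peptide and 7.11 in control, and its other probe set read 6.31 with heparin, 7.29 with peptide and 6.80 in control. Cdk8 of the Mediator complex read 8.66 with heparin, 8.93 with peptide and 9.07 in control. Cdk14 was 0.37 higher with heparin than in control, at 9.22 with heparin, 8.81 with peptide and 8.86 in control. Its other 3 probe sets were at the lowest value. Cdk18 read 7.35 with heparin, 7.37 with peptide and 7.12 in control. Its other measured probe set read 5.79 with heparin, 5.65 with peptide and 4.93 in control, so that it was 0.86 higher with heparin and 0.72 higher with peptide, both past 1.5-fold. Those values do not enter the counts, which use the probe set with the highest mean. On the probe sets used, the remaining measured CDK genes other than Cdk20 and Cdk5 spanned less than 0.25 over the arrays.

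Of the anaphase-promoting complex, the ubiquitin ligase that ends mitosis, Cdc16, Cdc23 and Cdc27 had identical values on all arrays. Cdc26 read 6.01 with heparin, 6.32 with peptide and 6.21 in control, while a further measured probe set of it read 6.08 on all. Cdc20, its activator in mitosis, was below the median. Cdc14a, a phosphatase, read 7.80 with heparin, 7.40 with peptide and 7.40 in control. Among the other genes brought in by name, Cdc37l1, a relative of an HSP90 co-chaperone, and Cdc40 were 0.46 and 0.45 lower with heparin than in control. Cdc42 itself read 11.89 with heparin, 11.82 with peptide and 11.89 in control, and Cdc42ep3 and Cdc42ep4 differed by -0.20 and 0.25 between heparin and control. Cdkn2aip, which encodes a partner of the ARF protein, had 2 measured probe sets that differed by -0.22 and 0.15 between heparin and control. Apart from Cdk12, Cdk18 and Ccnd1, measured probe sets outside the counts were past 1.5-fold in some comparison for 2 further genes. That of Cdkn2aipnl, a relative of Cdkn2aip, read 4.21 with heparin, 4.72 with peptide and 5.09 in control, while the one used read 7.28 with heparin, 7.34 with peptide and 7.34 in control. That of Cdc34, a ubiquitin-conjugating enzyme, read 8.12 with heparin, 8.74 with peptide and 8.29 in control, while the one used read 8.69 with heparin, 8.84 with peptide and 8.84 in control.

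Heparin and peptide were set against each other directly. Cdc25b was the 1 gene of 69 that was past 2-fold lower in heparin than in peptide (0.844% of all 9240 measured genes), and 0 were past 2-fold higher (0.281%). At 1.5-fold, 2 were higher and 4 lower (1.62% and 4.57%). The higher genes were Ccnd2 (1.73-fold) and Cdkn1c (1.60-fold). The lower genes were Cdc25b (2.10-fold), Cdk20 (1.89-fold), Ccnd1 (1.78-fold) and Plk2 (1.54-fold). Cyclins D1 and D2 thus stood on opposite sides of this comparison. Over all 69 genes the median was 0.00, with 32 lower in heparin (46.4%, against 43.7% of all genes) and 16 higher (23.2%, against 26.8%).

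**Figure D4:**
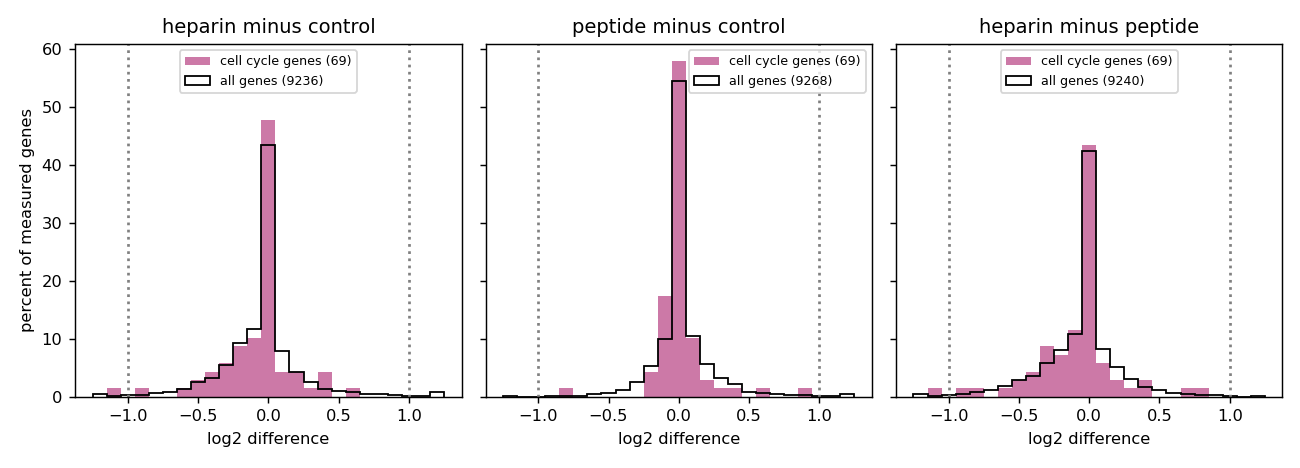
Percent of measured genes (y axis) by log2 difference in bins of 0.1 (x axis) for the 69 cell cycle genes (filled) and all measured genes (line, with differences beyond the axis put in the outermost bins) in each comparison. Dotted lines mark 2-fold, which 1 cell cycle gene passes on the lower side in heparin minus control and in heparin minus peptide, and 0 pass in peptide minus control.

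Values were often exactly the same on different arrays, which does not show equal abundance. Of the 69 genes, 18 had 3 identical values, 23 had exactly 2 and 28 had 3 different values. At least 2 identical values were found in 59.4% of them and in 54.3% of all genes measured on all arrays. Where 1 array differed from an identical pair, it was the heparin array for 17 genes, 11 lower and 6 higher, the peptide array for 3 and the control array for 3. This split was not counted over all genes, so it is not read as a trait of the cell cycle genes. Peptide and control values were identical for 50.7% of the 69 genes and 39.5% of all measured genes. For heparin and control these shares were 30.4% and 30.1%, and for heparin and peptide 30.4% and 29.5%. The heparin array was the lowest of the 3 for 37.7% of the cell cycle genes and for 35.1% of all genes. The span over the 3 arrays had a median of 0.11 in the 69 genes and 0.14 in all genes. Heparin and peptide share 1 control array, so any error in a control value enters both differences.

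Cell cycle genes outside the name rule were read from 6 lists, of whose 188 entries 162 matched by symbol and 4 by synonym. Of the replication list 26 of 38 genes on the array were measured, and of the list of mitotic spindle and chromosome genes 9 of 41. Over all genes 64.9% lay above the median on all 3 arrays. In heparin against control 0 of the 26 replication genes were at least 1.5-fold higher, against 3.04% of all genes, and 1 was lower (3.85%, against 3.37% of all genes). This was Slbp, which encodes the stem-loop binding protein of histone messages. Slbp read 7.60 with heparin, 8.03 with peptide and 8.40 in control. It has 3 probe sets, and it was not measured when their mean or median stood for the gene. In peptide against control 0 of the 26 were past 1.5-fold, where 2.11% of all genes were higher and 0.917% lower by that fold. Pola2, a subunit of the polymerase that starts new DNA strands, read 5.63 with heparin, 6.20 with peptide and 5.77 in control.

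Among the 9 measured mitotic genes, Kif11, the motor that separates spindle poles, read 5.88 with heparin, 7.49 with peptide and 7.37 in control. It was the one gene of these lists past 2-fold, with a difference of -1.50 between heparin and control. Over all genes 0.747% were at least 2-fold lower in that comparison. The second probe set of Kif11 did not show a difference of that size, at 6.22 with heparin, 6.31 with peptide and 6.31 in control. At 1.5-fold, 2 of the 9 were higher and 1 lower with heparin than in control (3.04% and 3.37% of all genes). With peptide, 1 of the 9 was higher and 0 lower by that fold (2.11% and 0.917% of all genes). Melk, a kinase of dividing cells, read 5.67 with heparin, 5.81 with peptide and 4.92 in control, and the centromere gene Cenpk 5.08 with heparin, 4.21 with peptide and 4.21 in control. In the list of Rb family and checkpoint genes 0 of 15 measured were higher in heparin than in control by any amount, 11 were lower and 4 identical, with a median of -0.16, where 25.8% of all genes were higher, 44.2% lower and 30.1% identical. In peptide against control 4 of 16 measured were higher, 8 lower and 4 identical, with a median of 0.00, where 32% of all genes were higher, 28.5% lower and 39.5% identical. Rad1, of the DNA damage clamp, was 0.83 below control with either treatment. Lin37, of the complex that silences cycle genes in resting cells, read 7.16 with heparin, 7.78 with peptide and 7.71 in control, and Wee1, the kinase that opposes Cdc25b on CDK1, read 8.26 with heparin, 8.81 with peptide and 8.80 in control.

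Of 16 measured p53 targets, 3 were past 1.5-fold lower and 0 past 1.5-fold higher in heparin than in control, with a median of -0.15, where 3.37% of all genes were lower and 3.04% higher by that fold. In peptide against control 1 was past 1.5-fold lower and 0 higher, with a median of 0.00, where 0.917% of all genes were lower and 2.11% higher. Gdf15, a stress-induced cytokine, read 6.84 with heparin, 7.72 with peptide and 7.60 in control. Mdm2, the ubiquitin ligase that removes p53, read 9.90 with heparin, 10.70 with peptide and 10.64 in control. Sfn, a 14-3-3 protein that holds cells before mitosis, read 9.83 with heparin, 9.94 with peptide and 10.58 in control. Cdkn1a and Plk2, also p53 targets, were higher with heparin than in control by 0.19 and 0.28.

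In the list of further ubiquitin ligase genes 20 of 22 were measured, where 64.9% of all genes lay above the median on all 3 arrays. Anapc1, the scaffold of the anaphase-promoting complex, was 0.60 lower with heparin and 0.56 lower with peptide than in control. It read 4.89 with heparin, 4.92 with peptide and 5.49 in control. Anapc1 has 4 probe sets, and it was not measured with their mean or median or with the 60th percentile filter. Between heparin and control it was past 1.5-fold in 3 of the 6 other settings that measured it. Fbxo4, an F-box protein, read 6.94 with heparin, 7.36 with peptide and 7.15 in control, and Cks2, which binds CDKs, 7.33 with heparin, 7.48 with peptide and 7.65 in control. Of 17 measured relatives outside the name rule 0 were past 1.5-fold against control with either treatment. By that fold, 3.04% of all genes were higher and 3.37% lower with heparin, and 2.11% higher and 0.917% lower with peptide. The growth regulator Myc read 11.04 with heparin, 11.67 with peptide and 11.53 in control, the Btg relative Tob1 10.43 with heparin, 11.01 with peptide and 10.80 in control, and Ccnh, the cyclin of CDK7, 8.34 with heparin, 8.78 with peptide and 8.83 in control.

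Markers of blood cells, which reach a reperfused kidney, were read beside these results. All 7 leukocyte markers found of 8 listed were measured on each array, and 0 were at the lowest value. The log2 of their summed level was 13.64 with heparin, 13.98 with peptide and 13.72 in control, a sum carried mainly by the neutrophil genes S100a8 and S100a9. The pan-leukocyte gene Ptprc read 9.49 on all arrays. The macrophage gene Cd68 had another order than the sum, at 7.55 with heparin, 6.99 with peptide and 7.07 in control. The 4 red cell and platelet markers were all lower with heparin than in control, with a median of -0.85, and all lower with peptide than in control, with a median of -0.27. Over all measured genes 44.2% were lower with heparin and 28.5% lower with peptide than in control. The part of these blood cell markers in the cell cycle values was not tested.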

How the data were processed

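The deposited file holds log2 expression values per probe set, 1 column for each of the 3 arrays. Per the submitters' processing notes they were made with GCRMA, which corrects background by probe sequence. The sources used here give no version, no settings and no step between arrays. Nothing was renormalized for the values reported. Each gene stands as 1 probe set, the one whose mean on the 3 arrays is highest, among those with 1 symbol in the platform annotation. A gene was measured in a comparison when at or above the array median on both arrays. Differences of log2 values were counted at 2-fold and 1.5-fold with Python 3.11.15 and pandas 2.3.3. The counting was tested on simulated data.

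The members and lists were chosen with earlier results of these data known. Genes named are those at least 1.5-fold apart in any comparison, the 3 with the largest difference in each role group or list, and a further list by role, of which Btg2 was not analysed here. Others (Cdk5, Cdk8, Cdk18, Ccng2 and Ccnd3 among them, members below the median, podocyte genes, Cd68, Cdkn2aipnl, Cdc34 and the second probe sets of Kif11 and Cdk18) were named after their values were seen. Promoters came from RefSeq, 1 per gene, the first listed where there were several. Arrays have no read depth, and 1 array per group limits the precision.

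Alternatives were other filters (40th and 60th percentile, none), the mean or median of a gene's probe sets, quantile normalization, centring on the median gene, and 32 or 64 added to unlogged values.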

Additional observations from a re-analysis of the deposited data

How the results depend on the processing

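No paired analysis was possible because each group has 1 array. No array could be left out for the same reason. The 3 medians of the measured cell cycle genes moved by under 0.1 in every other setting tried. These include one added after seeing the data, which left out Cdc42, its partners and the other genes brought in by name. That setting left every count within 1.5 times. In heparin against control the count at least 2-fold lower, 1, became 0 when the filter sat at the 60th percentile, where Cdc25b is not measured, and 0 with 32 or 64 added. The count at least 1.5-fold lower, 2, was 1 with the 60th percentile filter and 1 with 64 added. The count at least 1.5-fold higher, 0, was 1 after quantile normalization, with Cdkn1c at 0.60. In peptide against control the count at least 2-fold higher, 0, was 1 with the mean and 1 with the median of probe sets (Cdkn1a), which also made 2 of the 1 gene at least 1.5-fold higher. The count at least 1.5-fold lower, 1, was 0 with 64 added. In heparin against peptide the count at least 2-fold lower, 1, was 0 with the 60th percentile filter and 0 with 32 or 64 added. The counts at 1.5-fold, 2 higher and 4 lower, were 1 and 2 with 64 added, and 7 were lower with the median of probe sets. Adding a constant shrinks differences of low values by construction. Plk2 between heparin and peptide, -0.62, was below 1.5-fold after quantile normalization and with 64 added. Kif11, at -1.50 between heparin and control, came to -0.79 with its probe sets averaged. Of the other list genes past 1.5-fold, Melk, Cenpk, Rad1, Gdf15, Mdm2, Anapc1, Lin37 and Myc were under it in at least 1 setting. No gene of the name rule or the lists that the rule for named genes chose, and that was past 1.5-fold, reversed its direction in a setting that measured it.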
